A study of Homo sapiens with 30 samples.

Results

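The comparison described here sets the response of hCMEC/D3 cells to extracellular vesicles from tumour necrosis factor (TNF) treated cells against the response of the same cell line to TNF itself. hCMEC/D3 cells are immortalised endothelial cells from human brain microvessels and serve as an in vitro stand-in for the barrier between blood and brain. It rests on 12 of the 30 libraries of the study, 3 in each of 4 groups. Control cells were kept in serum-free medium for 12 h, and TNF cells received 25 ng/mL TNF in that medium for 12 h. EV-Control and EV-TNF cells were given vesicle preparations, enriched from the supernatant of other cells of the same line. These donor cells had medium only for EV-Control and 25 ng/mL TNF for EV-TNF. All groups share the cell line, and the labels also give 12 h for the vesicle libraries. The vesicle dose is not stated in the labels, nor is it stated whether libraries of a group came from separate cultures, so p-values measure the spread between these libraries, which may be technical.

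TNF minus Control is called the direct arm and EV-TNF minus EV-Control the vesicle arm. Both groups of the vesicle arm received vesicles, so a rise or fall with vesicles means EV-TNF against EV-Control, not against untreated cells. The interaction is the vesicle arm minus the direct arm, so a negative value means that a gene rose less, or fell more, with vesicles than with TNF. All 15668 genes of the 63138 in the count table that passed the low-count filter were members, and each arm and the interaction were fitted for every one of them. A gene was called at an adjusted p under 0.05, from the quasi-likelihood test of edgeR, adjusted by Benjamini-Hochberg over all 15668 genes. Levels are given per library, in replicate order, as CPM (counts scaled to a common library size), and changes as log2 fold changes. The standard errors (SE, after ±) are approximate. Each was worked back from the test, as the absolute change divided by the square root of its F statistic. Genes called in both arms were separated by sign, and genes called in 1 arm were counted as particular to it only where the interaction was called as well.

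TNF binds TNFR1 (TNFRSF1A) and TNFR2 (TNFRSF1B) and, through adaptor proteins and kinases, releases NF-kappaB from its inhibitor IkappaB-alpha (NFKBIA). In endothelium this is known to induce leukocyte adhesion molecules, chemokines and cytokines, together with feedback inhibitors such as NFKBIA and TNFAIP3 (A20). Interferon-stimulated genes are a separate set, driven by STAT and IRF factors that bind interferon-stimulated response elements. Extracellular vesicles are membrane-bound particles that carry proteins and RNA between cells.

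Library totals of the 12 libraries ran from 16690949 to 22112326 counts, and 14340 to 15167 genes had at least 10 counts. The first principal component held 55.2% of the variance and placed the TNF libraries at 69.8 to 70.7 and every other library below 0. Component 3, with 7.54%, separated EV-TNF (20.3 to 22) from EV-Control, whose libraries were spread at -29.6, -18.5 and -9.54. EV-Control replicate 1 therefore stood farthest from EV-TNF, and counts without it are given for the vesicle arm and its classes. Of 13 endothelial markers 12 were tested, and their summed level was 1830 to 1870 CPM in Control, 1920 to 1970 in TNF, 1350 to 1390 in EV-Control and 1460 to 1490 in EV-TNF. In these bulk samples fewer cells of a type and less RNA per cell cannot be told apart. Markers of other cell types were low or few: 1 of 6 leukocyte markers was tested (at most 1.25 CPM), 1 of 5 astrocyte markers (at most 5.19 CPM), 3 of 5 neuron markers (at most 5.11 CPM summed). The pericyte markers tested (4 of 7) summed to 361 to 469 CPM and the epithelial ones (3 of 5, the keratins KRT8, KRT18 and KRT19) to 158 to 314 CPM, lowest in TNF. Their part in the results was not tested.

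The direct arm was the larger by far. TNF raised 4382 genes (28%) and lowered 4214 (26.9%), and 2053 of these changed by more than 1 log2 unit. EV-TNF raised 774 genes (4.94%) and lowered 946 (6.04%) against EV-Control, with 181 over 1 log2 unit. These 1720 vesicle calls became 1279 without EV-Control replicate 1. The interaction was called higher for 3545 genes (22.6%) and lower for 3837 (24.5%). Across the 15668 genes the log2 fold changes of the arms, which share no library, had a Pearson r of -0.157 and a Spearman rho of -0.106, given as a description since genes are not independent replicates. Among 360 genes that rose by over 2 log2 units with TNF, 66 were called higher and 59 lower in the vesicle arm, with a median vesicle change of -0.129. Among 220 genes that fell by over 2 log2 units with TNF, 17 were called higher and 7 lower, with a median of 0.189. With library totals as the only scaling, the interaction split moved to 6800 higher and 2086 lower and the direct arm to 2319 higher and 7910 lower. The median of all genes shifted from -0.02 to -0.289 in the direct arm under that scaling and from 0.001 to 0.014 in the vesicle arm, so direct changes are relative to the median gene.

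Called genes fell into classes of unequal size. Both arms called 540 genes in the same direction, 332 higher and 208 lower. Both called 741 in opposite directions, 498 higher with TNF and lower with vesicles and 243 the reverse. The direct arm alone, with the interaction called, held 2767 genes that rose and 2841 that fell, and the vesicle arm alone 133 that rose and 166 that fell. For 1707 genes called in the direct arm and 140 called in the vesicle arm the interaction was not called, so these were not assigned to an arm. A further 404 genes had a called interaction with neither arm called, and 6229 genes were called in none of the tests. Without EV-TNF replicate 1 the alike class held 400 and the opposite class 505 genes, and without EV-Control replicate 1 they held 455 and 555. The vesicle arm alone held 204 genes without EV-Control replicate 1, in place of 299.

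**Figure D1:**
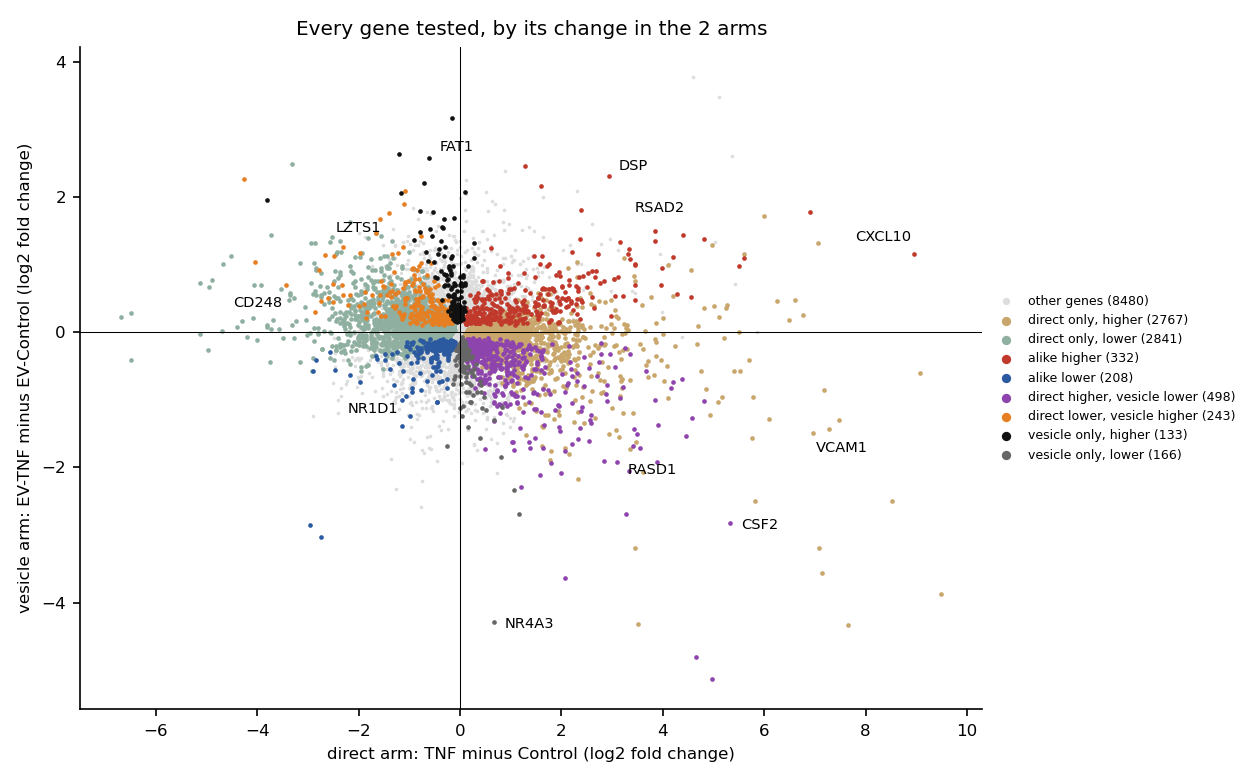
Each point is 1 of the 15668 genes, with the direct log2 fold change (TNF minus Control) on the x axis and the vesicle log2 fold change (EV-TNF minus EV-Control) on the y axis, coloured by class. The direct changes spread much farther than the vesicle changes; CXCL10 lies at 8.95 and 1.16, VCAM1 at 7.27 and -1.44, and NR4A3 at 0.67 and -4.28.

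The clearest response that the arms shared was that of interferon-stimulated genes. All 32 listed members rose with TNF (median log2 fold change 2.31), against 28% of all genes tested. Of the 32, 27 also rose with TNF vesicles (median 0.68), against 4.94%. The interaction was called lower for 31 of 32 and higher for 0 (median -1.77), against 24.5% and 22.6%, so the vesicle response was the smaller one. RSAD2 (chr2:6865806-6898239, + strand), which encodes the antiviral enzyme viperin, measured 56.9, 53.6 and 56.8 CPM in Control and 797, 804 and 807 in TNF. It measured 52.9, 52.5 and 54.7 CPM in EV-Control and 129, 134 and 143 in EV-TNF. The controls lay within 5 CPM of each other and both treated groups lay above them without overlap. Its log2 fold change was 3.85 ± 0.04 with TNF (SE, adjusted p = 1.3e-45) and 1.34 ± 0.04 with vesicles (adjusted p = 7.5e-27). Exons of RSAD2 share positions with CMPK2 on the opposite strand, and the sources do not state if strand was used in counting.

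In other antiviral effectors EV-TNF also lay between the controls and TNF. ISG15, a ubiquitin-like modifier, measured 250, 247 and 234 CPM in Control, 935, 981 and 939 in TNF, 218, 228 and 233 in EV-Control and 393, 382 and 433 in EV-TNF. IFIT3, a member of the antiviral IFIT family, measured 163, 155 and 174 CPM in Control, 1720, 1850 and 1790 in TNF, 176, 167 and 171 in EV-Control and 337, 327 and 362 in EV-TNF. In each of these genes no EV-TNF library overlapped EV-Control, and EV-TNF stayed far below TNF. MX1, a dynamin-like GTPase that restricts viruses, rose by 2.43 ± 0.03 with TNF and by 0.83 ± 0.03 with vesicles, and the sensor gene IFIH1 (MDA5) rose by 2.84 ± 0.04 and 0.75 ± 0.04. IRF7, a transcription factor of the pathway, rose by 1.81 ± 0.045 with TNF and by 0.64 ± 0.046 with vesicles. GBP4, a guanylate-binding protein, rose by 5.61 ± 0.077 with TNF and by 1.1 ± 0.11 with vesicles. IRF1, which NF-kappaB also induces, was the single listed member called lower with vesicles. It measured 40.1, 38.3 and 45.9 CPM in Control, 346, 389 and 379 in TNF, 187, 105 and 90.5 in EV-Control and 62.3, 66.9 and 66 in EV-TNF. The call of 27 ranged from 26 to 28 when each library was left out, and 25 members were called higher when EV-TNF was set against Control in place of EV-Control.

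Promoter stretches of 4 genes of this class are shown because they hold the interferon-stimulated response element core. The sequences are RefSeq's (GRCh38.p14), printed 5′ to 3′ on the gene's strand and upstream of the annotated start. Capitals mark matches on either strand to 3 motifs: the element core (TTTC, any 2 bases, TTTC), the NF-kappaB consensus and the short core TGACG of the cAMP response element. In IFIH1 the pair of core matches overlaps, and positions are counted from the start site.
CXCL10 (chr4:76023590-76023738, - strand): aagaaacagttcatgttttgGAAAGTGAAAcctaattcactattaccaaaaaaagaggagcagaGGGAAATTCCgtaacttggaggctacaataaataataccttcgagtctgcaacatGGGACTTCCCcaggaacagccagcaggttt
IFIT3 (chr10:89327821-89327893, + strand): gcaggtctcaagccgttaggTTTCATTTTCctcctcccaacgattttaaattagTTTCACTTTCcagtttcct
IFIT1 (chr10:89392460-89392545, + strand): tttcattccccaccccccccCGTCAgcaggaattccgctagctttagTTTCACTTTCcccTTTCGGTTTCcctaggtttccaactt
IFIH1 (chr2:162318731-162318863, - strand): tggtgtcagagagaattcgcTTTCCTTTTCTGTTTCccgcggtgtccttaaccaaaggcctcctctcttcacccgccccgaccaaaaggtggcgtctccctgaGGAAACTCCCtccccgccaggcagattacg
CXCL10 holds 1 element core (-221 to -212) and a pair of NF-kappaB matches (-177 to -168 and -122 to -113). IFIT3 and IFIT1 hold a pair of cores each, and IFIH1 a pair of cores with 1 NF-kappaB match.

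The element core was counted in all promoter windows, each with 250 bases before and 50 after the start. Among all 27305 RefSeq promoters the core was present in 3.65%, and among the 11191 of genes tested in 2.98%. Among the 247 promoters matched to the 332 genes called higher in both arms, 54 (21.9%) held it. Leaving out the interferon-stimulated list, 40 of 227 (17.6%) did. The share was 3.9% among genes that rose in the direct arm only, 2.28% among those that rose with TNF and fell with vesicles, and 2.02% among those that rose in the vesicle arm only. The NF-kappaB consensus stood at 13.2% among genes tested and at 15%, 14.4% and 15.7% in the alike higher, direct only higher and direct higher with vesicle lower classes. These shares are descriptions, and a match is not evidence of binding.

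Class I antigen presentation moved with the interferon genes, at a smaller size. All 20 listed members rose with TNF (median 1.05) and 12 of 20 rose with vesicles (median 0.12), against 28% and 4.94% of all genes. The interaction was lower for all 20, against 24.5%. TAP1, the peptide transporter of the endoplasmic reticulum, measured 178, 167 and 162 CPM in Control, 803, 853 and 818 in TNF, 140, 149 and 130 in EV-Control and 182, 183 and 190 in EV-TNF. The EV-TNF libraries thus lay above EV-Control but within 12 CPM of the highest Control library. HLA-F rose by 2.23 ± 0.057 with TNF and by 0.32 ± 0.064 with vesicles. EV-Control was below Control for 13 of the 20 genes, against 10.7% of all genes, and with Control as the reference of the vesicle arm only 5 members were called higher.

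Some genes outside the interferon-stimulated list also changed strongly in both arms. Whether interferon signalling acts on them was not tested. DSP (chr6:7541575-7586717, + strand), which encodes the desmosomal linker desmoplakin, measured 2.37, 1.61 and 1.92 CPM in Control and 17.3, 12.5 and 15.7 in TNF. It measured 7.55, 6.39 and 6.99 CPM in EV-Control and 33, 35.1 and 35.8 in EV-TNF, the highest group. Its changes were 2.93 ± 0.15 with TNF and 2.31 ± 0.12 with vesicles (adjusted p = 4.6e-20). The interaction of -0.62 ± 0.20 was called (adjusted p = 0.011), but not with library totals as the scaling (-0.34) or without Control replicate 2 (-0.49).

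The CXCR3 ligands CXCL10 and CXCL11, chemokines that attract activated T cells, rose steeply with TNF and slightly with vesicles. CXCL10 measured 0.412, 0.469 and 0.876 CPM in Control, 284, 305 and 281 in TNF, 0.585, 0.644 and 0.374 in EV-Control and 1.24, 0.997 and 1.38 in EV-TNF. The vesicle change of 1.16 ± 0.27 (adjusted p = 0.0027) therefore rested on 20 to 25 counts per EV-TNF library against 7 to 12 in EV-Control, and it was not called in the fit of all 30 libraries. CXCL11 rose by 6.9 ± 0.13 and 1.78 ± 0.31. CCL5, a chemokine of T cells and monocytes, rose by 4.2 and by 1.11, from 8.66, 9.23 and 8.28 CPM in EV-Control to 17.1, 17.7 and 21.9 in EV-TNF. Of the 16 chemokines tested 14 rose with TNF, against 28% of all genes. With vesicles 3 rose and 3 fell, against 4.94% and 6.04%. Those that fell were CCL20, CXCL3 and CXCL12. TNFSF13B (BAFF), a B cell survival factor, rose by 5.5 and 0.98, and TNFSF10 (TRAIL), a death receptor ligand, by 3.96 and 0.7. BATF2 rose by 3.16 ± 0.12 and 1.33 ± 0.16 and RTP4 by 3.33 ± 0.14 and 1.23 ± 0.16. BTC, an EGF receptor ligand, was called in both arms (3.85 and 1.5), but its vesicle call was lost without EV-TNF replicate 1 or 2 or EV-Control replicate 2 or 3, at 1.02 to 1.51, and in the fit of 30 libraries.

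Among the genes that fell in both arms was CXCL12, the ligand of CXCR4. It measured 74.2, 68.4 and 72.1 CPM in Control, 19.1, 17.9 and 17.5 in TNF, 88.2, 91 and 100 in EV-Control and 55.1, 53.9 and 58.4 in EV-TNF. It fell by 1.98 with TNF and by 0.74 with vesicles, and the interaction of 1.24 ± 0.09 was called (adjusted p = 6.9e-16). ADAMTS15, a secreted protease, fell by 2.17 and by 0.63. NR1D1, the clock repressor REV-ERB alpha, fell by similar amounts, by 1.07 ± 0.13 with TNF and by 0.95 ± 0.13 with vesicles. Its interaction was 0.12 ± 0.19 (adjusted p = 0.63), which does not show that the changes are equal, and its exons share positions with THRA on the other strand. SLC45A4 and OLAH fell in both arms with no called interaction (0.5 ± 0.25 and -0.09 ± 0.28). CARMIL2 also fell in both (-0.66 and -0.72). Its direct call was lost without Control replicate 2 (-0.55), and its vesicle call without EV-Control replicate 2 (-0.56), EV-Control replicate 3 (-0.54), EV-TNF replicate 1 (-0.73) or EV-TNF replicate 2 (-0.65), and its exons share positions with ACD.

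The inhibitors and subunits of NF-kappaB responded differently. Of 20 listed genes 17 rose with TNF (median 1.55), against 28% of all genes tested. With vesicles 0 rose and 4 fell (median -0.36), against 4.94% and 6.04%. The interaction was lower for 18 of 20 (median -2.17), against 24.5%. NFKBIA, the inhibitor IkappaB-alpha, measured 294, 278 and 327 CPM in Control, 698, 860 and 757 in TNF, 686, 627 and 514 in EV-Control and 271, 325 and 293 in EV-TNF. EV-Control thus lay near TNF, and EV-TNF within the range of Control or a few CPM below it. The changes were 1.36 ± 0.13 with TNF and -1.04 ± 0.13 with vesicles, with an interaction of -2.41 ± 0.18 (adjusted p = 5.5e-06). TNFAIP3, the ubiquitin-editing enzyme A20, measured 65.8, 52.8 and 71.4 CPM in Control, 1200, 1590 and 1350 in TNF, 427, 311 and 211 in EV-Control and 92, 122 and 113 in EV-TNF. NFKB2 and BCL3 were the other members called lower with vesicles (-0.8 and -0.56). The count of 4 ranged from 3 to 8 when each library was left out and was 8 with DESeq2.

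EV-Control itself differed from Control in most genes of the opposite class. Of the 498 genes that rose with TNF and fell with vesicles, 350 were higher in EV-Control than in Control, against 13% of all genes, and 14 were lower, against 10.7%. Against Control, the median of these genes was 0.64 in TNF, 0.31 in EV-Control and -0.02 in EV-TNF. In the reverse class, 124 of 243 were lower in EV-Control than in Control, and the medians were -0.67, -0.22 and 0.08. EV-Control enters both EV-Control minus Control and the vesicle arm, so these values are shown side by side and do not support each other. With Control in place of EV-Control as the reference, 688 genes were called in opposite directions, of which 179 were among the 741. Of the 540 alike genes 346 were still called alike. With that reference both arms share the Control libraries, which favours alike over opposite calls, so these counts are not an independent check.

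**Figure D2:**
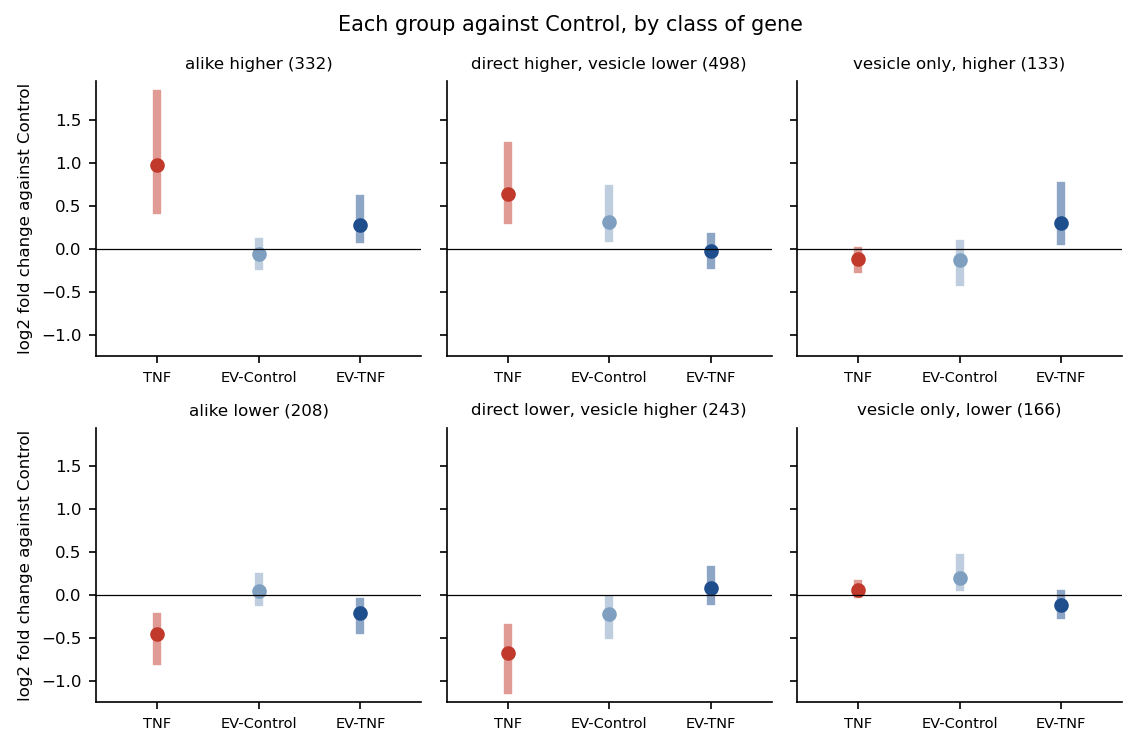
Median (point) and interquartile range (bar) of the log2 fold change against Control of TNF, EV-Control and EV-TNF, on the y axis, for the genes of 6 classes, whose sizes stand in the panel titles. In the class that rose with TNF and fell with vesicles EV-Control lies at 0.31 and EV-TNF at -0.02; in the alike higher class EV-Control lies at -0.06 and EV-TNF at 0.28.

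The genes with the largest opposite changes included signalling regulators. RASD1, a Ras-family GTPase, measured 4.59, 4.17 and 5.37 CPM in Control, 40, 41 and 39.6 in TNF, 34.6, 34.1 and 22.2 in EV-Control and 6.54, 7.98 and 9.62 in EV-TNF. Every EV-TNF library of RASD1 lay above Control and below EV-Control. The transcription factor gene GATA6 measured 5.83 to 6.52 CPM in Control, 43.4 to 46.2 in TNF, 15.7 to 26.4 in EV-Control and 4.99 to 7.14 in EV-TNF, which overlapped Control. KDM6B, a histone H3K27 demethylase, rose by 2.07 ± 0.26 with TNF and fell by 1.76 ± 0.26 with vesicles. C11orf96 and the GTPase gene GEM had interactions of -5.81 ± 0.39 and -5.96 ± 0.48. CSF2, the growth factor GM-CSF, measured 0.618, 0.469 and 0.329 CPM in Control, 14.4, 26.2 and 17.3 in TNF, 14.3, 5.47 and 3.15 in EV-Control and 0.743, 1.35 and 1.11 in EV-TNF. Its EV-Control libraries were the most spread, with replicate 1 near the TNF libraries. Its interaction was -8.16 ± 0.99 (adjusted p = 0.00014), while its vesicle change of -2.82 ± 0.68 (adjusted p = 0.032) was no longer called in 7 of the 12 leave-one-out fits. Of the 19 cytokines and growth factors tested all 19 rose with TNF (median 3.06), against 28% of all genes. With vesicles 7 fell and 2 rose, against 6.04% and 4.94%. The IL1A and IL1B genes of interleukin 1 were among those that fell (-1.69 and -0.74). The 7 ranged from 2 to 7 when each library was left out and were 2 with Control as the reference.

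Immediate early genes and targets of cyclic AMP split within the list. Of 28 members 15 rose and 2 fell with TNF, against 28% and 26.9% of all genes. With vesicles 3 rose and 8 fell, against 4.94% and 6.04%, and the 8 were 2 with Control as the reference. EV-Control was higher than Control for 14 of the 28, against 13%. The orphan nuclear receptors of the NR4A family were among those that fell with vesicles. NR4A3 (chr9:99821855-99866891, + strand) measured 12.3, 12.1 and 12.1 CPM in Control, 17.5, 20.7 and 19.9 in TNF, 134, 78.6 and 27.4 in EV-Control and 4.16, 3.89 and 4.26 in EV-TNF. Among these 4 groups EV-TNF was the lowest, and EV-Control was the highest and most uneven. The vesicle change was -4.28 ± 0.60 (adjusted p = 0.0022) and the interaction -4.95 ± 0.84 (adjusted p = 0.0012). The direct change of 0.67 ± 0.57 was not called (adjusted p = 0.36), although the TNF libraries all lay above Control, since 1 spread per gene is shared by the 12 libraries. NR4A2 measured 117, 104 and 106 CPM in Control, 226, 307 and 242 in TNF, 361, 325 and 290 in EV-Control and 119, 156 and 155 in EV-TNF. NR4A1 rose by 0.39 ± 0.10 with TNF and fell by 0.68 ± 0.10 with vesicles, and its direct call was lost with library totals as the scaling (0.12).

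The members that rose with vesicles were EGR1, EGR2 and DUSP4, genes of the growth factor and ERK response. EGR1 measured 122, 105 and 132 CPM in Control, 133, 190 and 160 in TNF, 85.7, 175 and 286 in EV-Control and 449, 542 and 543 in EV-TNF. Its vesicle change of 1.49 was called (adjusted p = 0.035), but its interaction was not (1.06, adjusted p = 0.13). DUSP4, an ERK phosphatase, fell by 0.92 with TNF and rose by 0.72 with vesicles, from 52.2, 61.1 and 56.3 CPM in EV-Control to 86.8, 92.1 and 101 in EV-TNF. PDE4B, a cAMP phosphodiesterase, did the reverse, at 0.66 and -1.05.

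Promoter stretches of 4 genes that did not rise with vesicles are shown for the motifs that they hold, with capitals and positions as above.
NFKBIA (chr14:35404801-35404850, - strand): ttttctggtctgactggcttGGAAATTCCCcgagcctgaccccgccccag
VCAM1 (chr1:100719660-100719741, + strand): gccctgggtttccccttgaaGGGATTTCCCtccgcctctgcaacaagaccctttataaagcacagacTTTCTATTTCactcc
NR4A3 (chr9:99821756-99821826, + strand): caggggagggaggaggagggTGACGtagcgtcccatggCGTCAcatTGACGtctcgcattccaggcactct
RASD1 (chr17:17496449-17496548, - strand): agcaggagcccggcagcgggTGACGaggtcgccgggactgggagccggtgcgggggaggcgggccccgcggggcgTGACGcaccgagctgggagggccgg
NFKBIA and VCAM1 hold an NF-kappaB match each (-81 to -72 and -62 to -53), and VCAM1 also holds an element core (-15 to -6). NR4A3 holds 3 TGACG matches within the stretch and RASD1 a pair. TGACG was present in 13 of the 22 promoters matched to the immediate early list (59.1%). Its share was 34.2% among promoters of all genes tested and 44.1% among those of genes that fell in the vesicle arm only. Among those of genes that rose with TNF and fell with vesicles it was 36%. The full cAMP response element, TGACGTCA, was present in 1 of the 22 immediate early promoters (4.55%), against 3.25% for all genes tested. Its share was 5.15% for genes that fell in the vesicle arm only. For genes that rose with TNF and fell with vesicles it was 2.54%. The NF-kappaB consensus was present in 7 of 17 promoters of the NF-kappaB list (41.2%) and in 13.2% of those of all genes tested. It was also present in 7 of 23 promoters of the interferon-stimulated list (30.4%) and 4 of 13 of the cytokine list (30.8%).

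**Figure D3:**
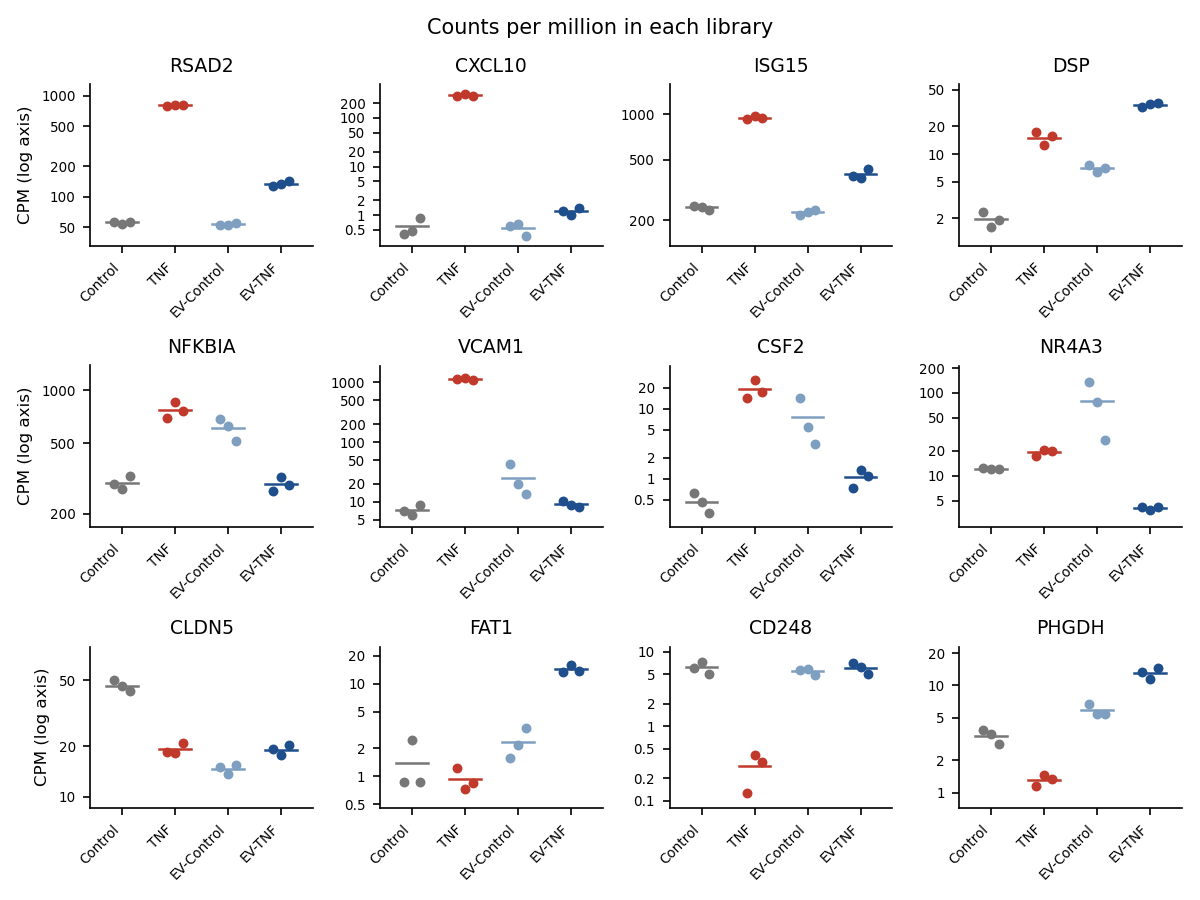
CPM of 12 genes on log axes, with 1 point per library, 3 per group, and a line at the group mean. RSAD2, CXCL10 and ISG15 are higher in EV-TNF than in EV-Control, NFKBIA, CSF2 and NR4A3 are lower, and the EV-Control libraries of VCAM1 (42.5, 20.2 and 13.5), CSF2 and NR4A3 are the most spread.

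In the reverse orientation, 243 genes fell with TNF and rose with vesicles. NOTCH3, a Notch receptor, measured 8.66, 9.22 and 5.31 CPM in Control, 1.29, 1.72 and 1.12 in TNF, 7.9, 8.16 and 9.34 in EV-Control and 19.8, 17 and 18.9 in EV-TNF. Here the controls overlapped, TNF lay below them and EV-TNF above them. Its interaction was 3.61 ± 0.25 (adjusted p = 1.7e-15). PHGDH, the first enzyme of serine synthesis, measured 3.81, 3.49 and 2.85 CPM in Control, 1.16, 1.46 and 1.34 in TNF, 6.67, 5.47 and 5.39 in EV-Control and 13.3, 11.5 and 14.4 in EV-TNF. LZTS1 had an interaction of 3.56 ± 0.50, on levels of at most 1.39 CPM in Control and 6.03 to 7.08 in EV-TNF. The Ras-family gene MRAS, TPD52 and the fatty acid binding protein gene FABP3 had interactions of 2.38 ± 0.31, 2.2 ± 0.24 and 1.76 ± 0.19. RAB17, a small GTPase of membrane traffic, measured 12.2, 12.7 and 12.1 CPM in Control, 0.518, 1.51 and 1.29 in TNF, 5.91, 5.8 and 5.07 in EV-Control and 10.9, 6.53 and 9.85 in EV-TNF. Its vesicle call was lost without EV-TNF replicate 1 (0.55).

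Of the 12 endothelial markers tested 3 belonged to this orientation, CLDN5, PECAM1 and ESAM, and 3 rose in both arms, FLI1, KDR and VWF. CLDN5 (claudin 5, the main tight junction protein of brain endothelium) measured 49.8, 46.1 and 43.3 CPM in Control, 18.5, 18.3 and 20.9 in TNF, 15.1, 13.7 and 15.4 in EV-Control and 19.2, 17.8 and 20.4 in EV-TNF. It fell by 1.27 ± 0.08 with TNF, was lower in EV-Control than in Control (-1.66 ± 0.09, adjusted p = 3.3e-19), and rose by 0.38 ± 0.09 with vesicles (adjusted p = 0.0038). Every EV-TNF library nevertheless lay below every Control library. PECAM1 (CD31), an adhesion molecule of endothelial contacts, measured 252 to 279 CPM in Control, 149 to 156 in TNF, 142 to 147 in EV-Control and 187 to 190 in EV-TNF. Its EV-TNF libraries lay above TNF and below Control, whereas those of CLDN5 overlapped TNF. ESAM, another such molecule, fell by 1.12 with TNF and rose by 0.65 with vesicles. Of the 12 markers 7 rose and 5 fell with TNF, against 28% and 26.9% of all genes, which turned to 4 and 7 with library totals. With vesicles 6 rose and 0 fell, against 4.94% and 6.04% of all genes. All 12 were lower in EV-Control than in Control, against 10.7%. With Control as the reference of the vesicle arm 0 of the 12 were called higher.

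Most genes of the TNF response were not called with vesicles. VCAM1, which binds leukocyte integrins, measured 7.16, 6.15 and 8.76 CPM in Control and 1120, 1200 and 1080 in TNF. It measured 42.5, 20.2 and 13.5 CPM in EV-Control and 10.4, 8.83 and 8.35 in EV-TNF, and the vesicle change of -1.44 ± 0.41 was not called (adjusted p = 0.059). Its interaction was -8.71 ± 0.55 (adjusted p = 1.4e-06). SELE (E-selectin), which slows rolling leukocytes, measured 10.2, 10.1 and 10.6 CPM in TNF, at most 0.258 in Control, 5.09, 1.5 and 0.0534 in EV-Control and 0.166 to 0.499 in EV-TNF, with an interaction of -8.32 ± 1.5. ICAM1, the ligand of the integrin LFA-1, measured 143, 137 and 133 CPM in Control, 1230, 1360 and 1270 in TNF, 246, 178 and 145 in EV-Control and 109, 106 and 110 in EV-TNF. Its vesicle change of -0.81 ± 0.16 was called (adjusted p = 0.016), a call that was lost without EV-TNF replicate 1 (-0.81), 2 (-0.79) or 3 (-0.82).

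The cytokine and chemokine genes IL6, CCL2 and CXCL8 rose with TNF by 3.07 ± 0.20, 5.52 ± 0.27 and 3.87 ± 0.24. Their vesicle changes of -0.19 ± 0.19, -0.58 ± 0.27 and -0.14 ± 0.22 were not called (adjusted p = 0.62, 0.24 and 0.8). IL6 measured 41.9, 34 and 50.7 CPM in Control, 290, 431 and 342 in TNF, 121, 130 and 137 in EV-Control and 95.3, 130 and 115 in EV-TNF, so both vesicle groups lay above Control. Exons of IL6 share positions with STEAP1B on the other strand.

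Several genes with the most negative interactions were nearly silent outside TNF. TNFAIP6 (TSG-6), a hyaluronan-binding protein, measured 37.5, 43.7 and 42.2 CPM in TNF and at most 6 counts in any library of the other groups. TRPA1, an ion channel, held 99 to 116 counts in TNF libraries and 2 in all Control libraries together, a ratio of 172 with a 95% counting interval of 47.3 to 1430. The receptor gene MRGPRX3 held 152 to 224 counts against 3 in all (ratio 200, 68.2 to 974). OR2I1P held 70 to 125 counts against 2 in all (ratio 171, 46.8 to 1410), and its exons share positions with UBD and GABBR1 on the other strand, whose reads cannot be told apart without a stranded count. In the vesicle groups these 3 genes had at most 8 counts in a library, so their vesicle arm was not measurable at this depth. Intervals and floors cover counting error only.

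CD248 (endosialin), a surface glycoprotein, measured 6.08, 7.34 and 5.04 CPM in Control, 0.129, 0.417 and 0.336 in TNF, 5.67, 5.8 and 4.91 in EV-Control and 6.98, 6.28 and 4.98 in EV-TNF. Its interaction of 4.47 ± 0.36 was the most positive of the genes named by rule. ST3GAL5, the enzyme that makes ganglioside GM3, fell by 4.08 ± 0.17, and its vesicle change was 0.21 ± 0.11 (adjusted p = 0.27). FAIM2, the water channel gene AQP5 and the sialyltransferase gene ST6GALNAC1 had direct changes of -4.21, -3.36 and -2.85, all called, and vesicle changes of -0.08, 0.58 and 0.55 that were not called. MMP2, a gelatinase, measured 43.7, 41.8 and 44.3 CPM in Control, 6.73, 8.44 and 8.62 in TNF, 32.8, 36.1 and 31.4 in EV-Control and 31.6, 28.3 and 26.8 in EV-TNF.

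Genes of the cell cycle and DNA replication fell with TNF and were called in both directions with vesicles. Of 30 members 28 fell and 1 rose with TNF (median -0.52), against 26.9% and 28% of all genes. With vesicles 4 fell and 5 rose (median -0.055), against 6.04% and 4.94%. The interaction was higher for 24 of 30 (median 0.5), against 22.6% of all genes. CCNA2 (cyclin A2) measured 182, 178 and 196 CPM in Control, 101, 108 and 96.6 in TNF, 168, 160 and 158 in EV-Control and 174, 170 and 175 in EV-TNF. UBE2C, a ubiquitin-conjugating enzyme of mitotic exit, fell by 0.66 with TNF and rose by 0.24 with vesicles.

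**Figure D4:**
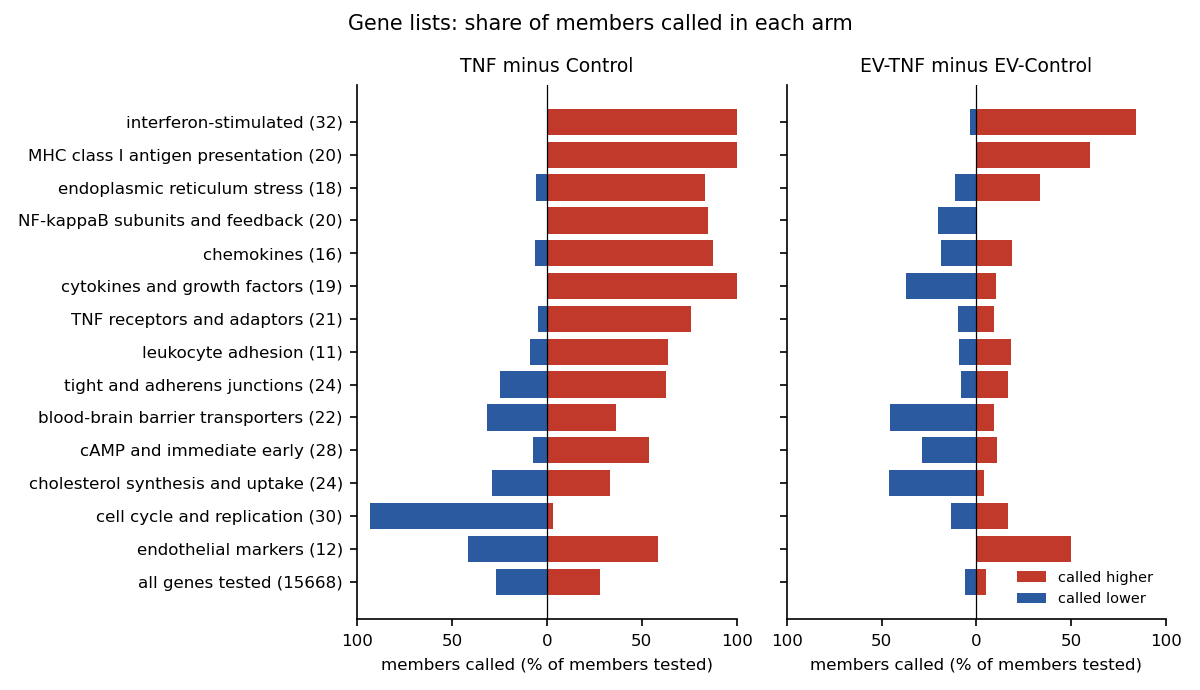
Share of the tested members of 14 gene lists, and of all 15668 genes, called higher (right, red) and lower (left, blue) in the direct arm and in the vesicle arm, with the number tested in brackets. Interferon-stimulated genes are called higher in both panels (32 and 27 of 32), whereas cell cycle genes are called lower mainly in the direct arm (28 of 30, against 4 in the vesicle arm).

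The vesicle arm alone called 299 genes together with the interaction. FAT1 (chr4:186587783-186726722, - strand), a giant protocadherin, measured 0.876, 2.45 and 0.876 CPM in Control, 1.23, 0.729 and 0.839 in TNF, 1.58, 2.2 and 3.31 in EV-Control and 13.3, 15.8 and 13.8 in EV-TNF. Among these 4 groups EV-TNF was the highest without overlap, with a vesicle change of 2.58 ± 0.26 (adjusted p = 5.3e-07) and an interaction of 3.2 ± 0.48. LIMCH1, an actin and myosin regulator, measured 7.72, 6.22 and 5.39 CPM in EV-Control and 14.5, 13.7 and 13.7 in EV-TNF, beside 5.31 to 6.2 in Control and 4.43 to 4.85 in TNF. SHROOM4, FAM169A, CACNG8 and CCNJL rose with vesicles by 1.35, 1.13, 1.09 and 1.03, at levels of at most 7.67 CPM, and exons of FAM169A share positions with NSA2. EGR2 rose by 1.78 with vesicles, to 2.08, 2.54 and 3.1 CPM. Of 26 giant cytoskeletal and adhesion genes FAT1 and DSP were the 2 that rose with vesicles and 0 fell, near the 4.94% and 6.04% of all genes.

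Beside NR4A3, the vesicle-only genes that fell included PER2, a clock repressor, CTH, an enzyme of cysteine synthesis, TMEM184A, SLC16A6 and NAB2. TMEM184A measured 3.19, 2.14 and 1.92 CPM in Control, 3.95, 2.29 and 3.41 in TNF, 15.9, 9.5 and 8.28 in EV-Control and 3.42, 3.94 and 4.04 in EV-TNF. PER2 measured 7.61, 5.42 and 2.4 CPM in EV-Control and 2.48, 2.24 and 1.44 in EV-TNF. CTH measured 7.14, 5.69 and 3.68 CPM in EV-Control and 2.87, 1.75 and 2.32 in EV-TNF. In each of these 3 genes EV-Control replicate 1 was the highest library. NAB2, a corepressor of EGR proteins, fell by 1.12 ± 0.27 but was not called in 7 of the 12 leave-one-out fits, and SLC16A6 fell by 1.68 ± 0.32, with an interaction not called in 3 of them. Exons of NAB2 share positions with STAT6, those of SLC16A6 with ARSG and those of TMEM184A with MAFK.

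TNFRSF1B measured 73.2, 75.2 and 74.6 CPM in Control, 148, 138 and 139 in TNF, 86.8, 89.8 and 84.2 in EV-Control and 93.9, 90.2 and 94.5 in EV-TNF. It rose by 0.93 ± 0.05 with TNF, and its vesicle change of 0.1 ± 0.05 was not called (adjusted p = 0.21). TNFRSF1A fell by 0.13 ± 0.04 with TNF, and its vesicle change was 0.01 ± 0.04. Of 21 receptors and adaptors 16 rose and 1 fell with TNF, against 28% and 26.9% of all genes. With vesicles 2 rose and 2 fell, near the 4.94% and 6.04% of all genes. BIRC3 (cIAP2), a ubiquitin ligase of the receptor complex, rose by 4.57 and fell by 1.27. TRAF5, an adaptor, rose by 0.66 and 0.4. The TNF gene itself did not pass the filter, with 10, 9 and 7 counts in TNF libraries, 8, 8 and 2 in EV-Control and at most 1 in Control and EV-TNF.

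Junction and barrier genes changed in both directions. Of 24 junction genes 15 rose and 6 fell with TNF, against 28% and 26.9% of all genes, and 9 rose and 9 fell with library totals. With vesicles 4 rose and 2 fell, against 4.94% and 6.04%. CLDN1 (claudin 1) measured 43.9, 40.1 and 44.7 CPM in Control, 499, 521 and 492 in TNF, 59, 45.1 and 43.6 in EV-Control and 42.4, 44.6 and 42.9 in EV-TNF. CDH5 (VE-cadherin), OCLN (occludin) and TJP1 (ZO-1) rose with TNF by 0.66 ± 0.04, 0.46 ± 0.10 and 0.4 ± 0.04. Their vesicle changes of -0.02, -0.17 and 0 were not called, and the direct call of OCLN was lost with library totals as the scaling (0.19). ABCB1 (P-glycoprotein), the efflux pump, measured 207, 218 and 218 CPM in Control, 257, 276 and 271 in TNF, 171, 171 and 173 in EV-Control and 155, 151 and 157 in EV-TNF. Its vesicle change of -0.15 ± 0.04 was called (adjusted p = 0.0063), but not without EV-TNF replicate 2 (-0.14), and its direct call was lost with library totals (0.05).

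Genes of cholesterol synthesis and uptake fell slightly with vesicles. Of 24 members 11 fell and 1 rose, against 6.04% and 4.94% of all genes. With TNF 8 rose and 7 fell, against 28% and 26.9%. The direct split moved to 3 higher and 16 lower with library totals. HMGCS1, an early enzyme of the pathway, measured 274, 274 and 301 CPM in Control, 346, 374 and 355 in TNF, 358, 337 and 350 in EV-Control and 264, 259 and 259 in EV-TNF. EV-TNF libraries of HMGCS1 lay below both Control and EV-Control. Of the 24 genes 14 were higher in EV-Control than in Control, against 13% of all genes. With Control as the reference 3 of the 24 were called lower. SREBF1, which encodes the sterol-responsive factor SREBP1, rose by 0.35, and the cholesterol exporter gene ABCA1 by 0.58. Of 22 blood-brain barrier transporters 10 fell and 2 rose with vesicles, against 6.04% and 4.94% of all genes. The transporters included TFRC, the transferrin receptor, at -0.41, and SLC7A5, a large amino acid transporter, at -0.52. EV-Control was higher than Control for 10 of the 22, against 13% of all genes. Their summed level was 3270 to 3360 CPM in Control, 3840 to 4020 in EV-Control and 3230 to 3260 in EV-TNF.

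EV-TNF was then set against the other stimulated vesicle groups of the study, from cells treated with 10 ng/mL interleukin 1 beta (EV-IL1b), 50 ng/mL complement C5a (EV-C5a) or 200 nM epinephrine (EV-Epinephrine), in a fit of 15 vesicle libraries and 15918 genes. Against the mean of the 3 groups 217 genes were higher (1.36%) and 130 lower (0.817%) in EV-TNF. Of the 31 interferon-stimulated genes tested in this fit 25 were higher and 0 lower, with a median difference of 0.36. Of the 20 class I genes 7 were higher.

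The mean concealed a difference between references. Against EV-IL1b alone edgeR's test called 0 genes higher (0%) and 1 lower (0.00628%), HSPA5, the chaperone BiP (adjusted p = 0.029), with 978 genes (6.14%) under 0.05 before adjustment. Against EV-C5a 880 were higher (5.53%) and 874 lower (5.49%), and against EV-Epinephrine 500 were higher (3.14%) and 365 lower (2.29%). Of 31 interferon genes tested there, 26 were higher than in EV-C5a (median difference 0.69), 24 were higher than in EV-Epinephrine (0.34), and 0 differed from EV-IL1b (0.081), where 13 had an unadjusted p under 0.05. RSAD2 averaged 119 CPM in EV-IL1b, 53.6 in EV-C5a and 84.9 in EV-Epinephrine. Its difference between EV-TNF and EV-IL1b was 0.24 ± 0.052 (adjusted p = 0.076).

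The classes were chosen with the EV-TNF libraries that enter these differences as well, so their counts are a description and the sign is partly set by that choice. Of the 332 genes called higher in both arms 257 were higher in EV-TNF than in EV-C5a and 0 lower, and 95 were higher than in EV-Epinephrine and 11 lower. Against EV-IL1b 0 of the 332 were higher and 1 lower, HSPA5, and 72 had an unadjusted p under 0.05 (21.7%, against 6.14% of all genes). Of the 498 that rose with TNF and fell with vesicles 342 were lower than in EV-C5a, while 39 were lower and 66 higher than in EV-Epinephrine. Against EV-IL1b 0 of the 498 were called, and 39 had an unadjusted p under 0.05 (7.83%). FAT1 averaged 17.7 CPM in EV-IL1b, 2.57 in EV-C5a and 16.7 in EV-Epinephrine, and DSP averaged 34.2, 8.64 and 33. NR4A3 averaged 4.62, 52.6 and 2.02. EV-IL1b and EV-Epinephrine thus lay near EV-TNF for these 3 genes, and EV-C5a nearer to EV-Control. Of the 28 immediate early genes 12 were higher in EV-TNF than in EV-Epinephrine and 0 lower (median difference 0.53), 2 were higher and 8 lower than in EV-C5a (-0.17), and 0 were called against EV-IL1b, where 1 had an unadjusted p under 0.05.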

How the data were processed

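RNA-seq libraries of hCMEC/D3 cells were analysed from the raw gene-level counts deposited by the authors, keyed by Ensembl ID. The submitters' processing notes name hg38, STAR, FastQC, DESeq2 and R 4.4.1. The annotation, the counting settings and the use of strand are not given in the sources used here. Lines without a gene ID (at most 0.00129% of a library) and 2 broken records, TTN and ANK2, were left out. Counts of the 12 libraries were fitted together in R 4.3.3 with edgeR 4.0.16 (filterByExpr, trimmed mean of M-values, robust quasi-likelihood test, two-sided, Benjamini-Hochberg adjustment, threshold 0.05). The fit was tested on simulated data. Every simulated gene and group had the same dispersion, and genes were changed in EV-TNF only. Unequal spread between groups was therefore not covered. DESeq2 1.42.0 was an alternative. CPM are counts divided by the scaled library size, and principal components used log2 CPM with a prior count of 2. Total counts of 16690949 or more set the precision, and a count of 0 allows up to 3. Gene positions and exon overlaps are those of GENCODE 29 (GRCh38), which held 58124 of 63138 gene IDs. Promoters are RefSeq's.

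Members and gene lists were chosen with earlier results of these data known. Named genes had a symbol and at least 5 CPM in the highest group, and were the 8 largest interactions in each direction. To these were added the 6 largest of each class of both arms and of the vesicle arm, the 4 largest of the direct arm in each direction, 21 fixed genes and the leading members of lists. Examples outside this rule (IRF7, MX1, DUSP4, PDE4B, EGR1 and the like) were chosen after their values were seen. All libraries carry 1 batch number.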

Additional observations from a re-analysis of the deposited data

Results flagged for a closer look

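The arms differed by a test of the difference itself, the interaction of edgeR's quasi-likelihood fit, for 3545 genes called higher and 3837 called lower in the vesicle arm than in the direct arm. The genes with called changes of opposite sign stood out among these. CSF2 (-8.16), GEM (-5.96), C11orf96 (-5.81), RASD1 (-5.01), GATA6 (-4.74) and KDM6B (-3.84) rose with TNF and were lower in EV-TNF than in EV-Control. The log2 interaction stands in brackets. NOTCH3 (3.61), LZTS1 (3.56), PHGDH (2.5), MRAS (2.38), TPD52 (2.2) and FABP3 (1.76) fell with TNF and were higher in EV-TNF than in EV-Control. For the first 6 genes EV-Control was higher than Control. Against Control, the 498 genes of their class had a median log2 fold change of -0.02 in EV-TNF, so their fall is from EV-Control. Leaving out each EV-Control library measured the part of single libraries, not that of EV-Control as the reference. The vesicle call of CSF2 was lost in most leave-one-out fits. With Control as the reference, 179 of the 741 opposite genes were still called opposite. The origin of the EV-Control levels was not tested.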

How the results depend on the processing

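Requiring a log2 fold change over 1 left 2174 interaction, 2053 direct and 181 vesicle calls, with 26 genes alike, 68 opposite, 1538 in the direct arm only and 58 in the vesicle arm only, and 7 between EV-TNF and the other stimulated vesicles. Leaving out each library in turn gave 6828 to 7243 interaction, 7904 to 8833 direct and 1192 to 1846 vesicle calls, with 391 to 548 genes alike, 505 to 857 opposite, 5175 to 5643 in the direct arm only and 204 to 346 in the vesicle arm only, and 203 to 343 between EV-TNF and the other stimulated vesicles. List members called in the vesicle arm ranged over these fits from 8 to 12 (class I), 3 to 8 (NF-kappaB), 2 to 7 (cytokines), 6 to 9 (immediate early) and 8 to 11 (cholesterol). With Control as the reference of the vesicle arm, chosen after seeing the data, the vesicle arm held 3537 calls and the alike class 1919. Both arms then share the Control libraries, which favours alike calls. In that setting 5 class I, 2 cytokine, 2 immediate early, 3 cholesterol and 0 endothelial members were called in the direction given above. EV-TNF against the other stimulated vesicles gave 224 calls in the fit of 30 libraries, 1 against EV-IL1b alone, 1754 against EV-C5a and 865 against EV-Epinephrine. NF-kappaB members lower with vesicles numbered 7 without the low-count filter, 8 with DESeq2 and 9 in the fit of 30 libraries. The cause was not tested.

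The median vesicle change of genes binned by direct change moved with a filter at a mean of 50 counts to 0.119 (direct under -2), 0.015 (-1 to -0.5) and -0.038 (1 to 2). With library totals it moved to 0.049 (-2 to -1), 0.031 (-1 to -0.5), -0.031 (0.5 to 1), -0.018 (1 to 2) and -0.085 (over 2), and from 0 to 0.007 in the middle bin. Interactions that were not called changed sign for OLAH (0.19 with library totals, -0.26 to 0.02 without single libraries) and CARMIL2 (0.22 with library totals, -0.35 to 0.11 without single libraries). No pairing by replicate number was seen over all genes, where 18 same-number pairs had correlations of -0.0423 to 0.035. This does not show that the libraries were unpaired. A replicate block gave 7249 interaction and 1638 vesicle calls, and a replicate block within each arm 7101 and 1470. For named genes, 164 values were recomputed under each change of scaling, filter, fit, block and library. This gave 3189 results on the same side of the threshold, 68 that lost a call, 3 that gained one and 8 that changed sign. These counts do not include Control as the reference or the log2 fold change threshold, which moved the class counts most. Depth limits genes with at most 3 counts in the libraries of a group, for which ratios are given with their counting intervals.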

Other observations

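Over all genes 28% rose and 26.9% fell with TNF, and 4.94% rose and 6.04% fell with vesicles, and the counts of further lists stand against these shares. Of 20 tRNA synthetase genes 18 rose with TNF (12 with library totals) and 2 with vesicles, with WARS1, an interferon-induced synthetase, at 2.98 and 0.24. Of 18 genes of endoplasmic reticulum stress 15 rose with TNF (10 with library totals) and 6 with vesicles, led by HSPA5 (1.47 and 0.39), and 2 fell with vesicles, DNAJB9 (-0.35) and XBP1 (-0.22). Of 16 coagulation genes 9 rose with TNF and 5 fell with vesicles, and VWF rose by 0.43 with vesicles. Of 27 extracellular matrix genes 14 rose and 7 fell with TNF, but 8 rose and 16 fell with library totals. With vesicles 3 rose and 7 fell. Of 30 genes of vesicle biogenesis 13 rose and 1 fell with TNF, but 7 rose and 18 fell with library totals. With vesicles 0 rose and 5 fell. Of 24 genes of the ATF4 amino acid response 8 rose and 9 fell with TNF, near the share of all genes, and 4 rose and 13 fell with library totals. With vesicles 1 rose and 4 fell.

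Of 411 ZNF zinc finger genes 33 rose and 8 fell with vesicles, against 4.94% and 6.04% of all genes, while 58 rose and 74 fell with TNF. Of 41 ribosomal protein genes 25 rose with TNF under the trimmed mean scaling, but with library totals 0 rose and 25 fell, so no direction is given. Of 28 nuclear oxidative phosphorylation genes 4 rose and 4 fell with TNF, and 0 rose and 23 fell with library totals. Of 13 mitochondrially encoded genes 2 rose with vesicles. Among 11 leukocyte adhesion genes 7 rose and 1 fell with TNF, but 4 rose and 2 fell with library totals. With vesicles 2 rose, CD34 (0.55) and PODXL (0.24), and 1 fell.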
